A study of Mus musculus with 12 samples.

Results

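The myogenic regulatory factors and the MEF2 factors are the transcription factors that install and maintain the skeletal muscle programme. The 9 genes described here, of 22180 genes named on the arrays, were taken by name: Myod1, Myog, Myf5, Myf6, Mef2a, Mef2c, Mef2d, the satellite cell factor Pax7, and Mustn1. Each gene is represented by its probeset with a lone gene symbol and, where there are several, by that with the highest mean over the 12 arrays. No measured difference entered the choice of a probeset, while the genes were chosen with earlier results of these data known.

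Gastrocnemius, a mostly fast-twitch calf muscle, was taken from male FVB mice of 2 to 3 months that were wild type or lacked ERRα, the orphan nuclear receptor encoded by Esrra. Mice of each genotype were either sedentary or sampled 2 h after running on a treadmill to exhaustion, which gives 4 groups of 3 arrays, labelled as biological replicates. All groups share strain, muscle and labelled sex, the exercised groups differ from the sedentary ones in the run, and how the receptor gene was disrupted is not given in the sources used here. The series title names transcriptional programmes, exercise tolerance and muscle fitness, and the comparisons made here ask how far this set of factors differs by genotype and by exercise state. Whole muscle was measured, so that fewer cells of a type and less RNA per cell cannot be told apart.

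Myod1, Myog, Myf5 and Myf6 are basic helix-loop-helix proteins that bind E-box sequences together with ubiquitous E proteins. Myf5 and Myod1 act in myoblasts, Myog drives terminal differentiation, and Myf6 (also called MRF4) is the member of the family expressed most in adult fibres. MEF2 proteins bind AT-rich sites in many muscle promoters, cooperate with the helix-loop-helix factors, and are held inactive by class IIa histone deacetylases until calcium-dependent kinases release them. Pax7 marks satellite cells, the stem cells of muscle, and Mustn1 encodes a small nuclear protein of the musculoskeletal system that promotes myoblast fusion and differentiation.

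Arrays were grouped by their titles. For 6 arrays, those of the sedentary ERRα-null and exercised wild-type groups, another label gives the opposite exercise state. Ankrd1, a titin-associated stress gene, lay between 6.38 and 7.05 on the 6 arrays titled as sedentary and between 8.78 and 10.81 on the 6 titled as exercised. Esrra lay between 7.41 and 7.63 on wild-type arrays and between 6.55 and 6.89 on ERRα-null arrays. Values are log2 expression, and a difference of 1 is a doubling. Xist, transcribed from the inactive X chromosome, was at 7.82 to 7.90 on 3 arrays labelled male, the third of the exercised wild-type group and replicates 2 and 3 of the exercised null group, and at most 4.30 on the other 9. By contrast the Y-linked Eif2s3y was at most 5.2 on those 3 and at least 7.83 elsewhere. Markers of other tissues spread more widely on sedentary than on exercised arrays: the mean of 7 liver markers ran from 5.64 to 9.93 against 5.82 to 7.69, that of 7 adipocyte markers from 6.71 to 9.81 against 7.11 to 7.89, and that of 7 B and T cell markers from 5.49 to 8.06 against 5.26 to 5.84. For averaged exercise 6 of 6 tested liver markers (median −1.07), 7 of 7 adipocyte markers (−0.58) and 5 of 5 B and T cell markers (−1.13) were lower, none of them called. The mean of 9 muscle fibre markers, among them Acta1, Ckm and Myh4, ran from 12.58 to 12.81 and from 12.62 to 12.78. The part of sex or of other tissues in the results below was not tested beyond the fits without those 3 arrays and with the 3 marker means as covariates, whose values are given together after the other results.

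Myog, Myf6 and Mustn1 rose after exercise, and no member fell. Averaged over the genotypes, 3 of the 9 members rose at an adjusted p under 0.05 (limma, Benjamini-Hochberg over 13308 genes), where 3.14% of all tested genes rose and 6.57% were called in either direction. The median difference of the 9 was 0.18 log2, against −0.0066 over all genes tested. In wild-type muscle the same 3 genes rose, where 3.43% of all genes were called and 2.22% rose. In ERRα-null muscle Mustn1 rose, where 0.639% were called and 0.383% rose. Members whose arrays did not overlap between the states were Myod1, Myog, Myf5, Myf6 and Mustn1 in wild type, all higher, and Myog, Mustn1 and, lower, Mef2d in ERRα-null muscle. That was 5 of 9 where 21% of all genes have no overlap, and 3 of 9 where 19% do. The 9 were chosen with earlier results of these data known, so these shares describe them and do not test the set.

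**Figure D1:**
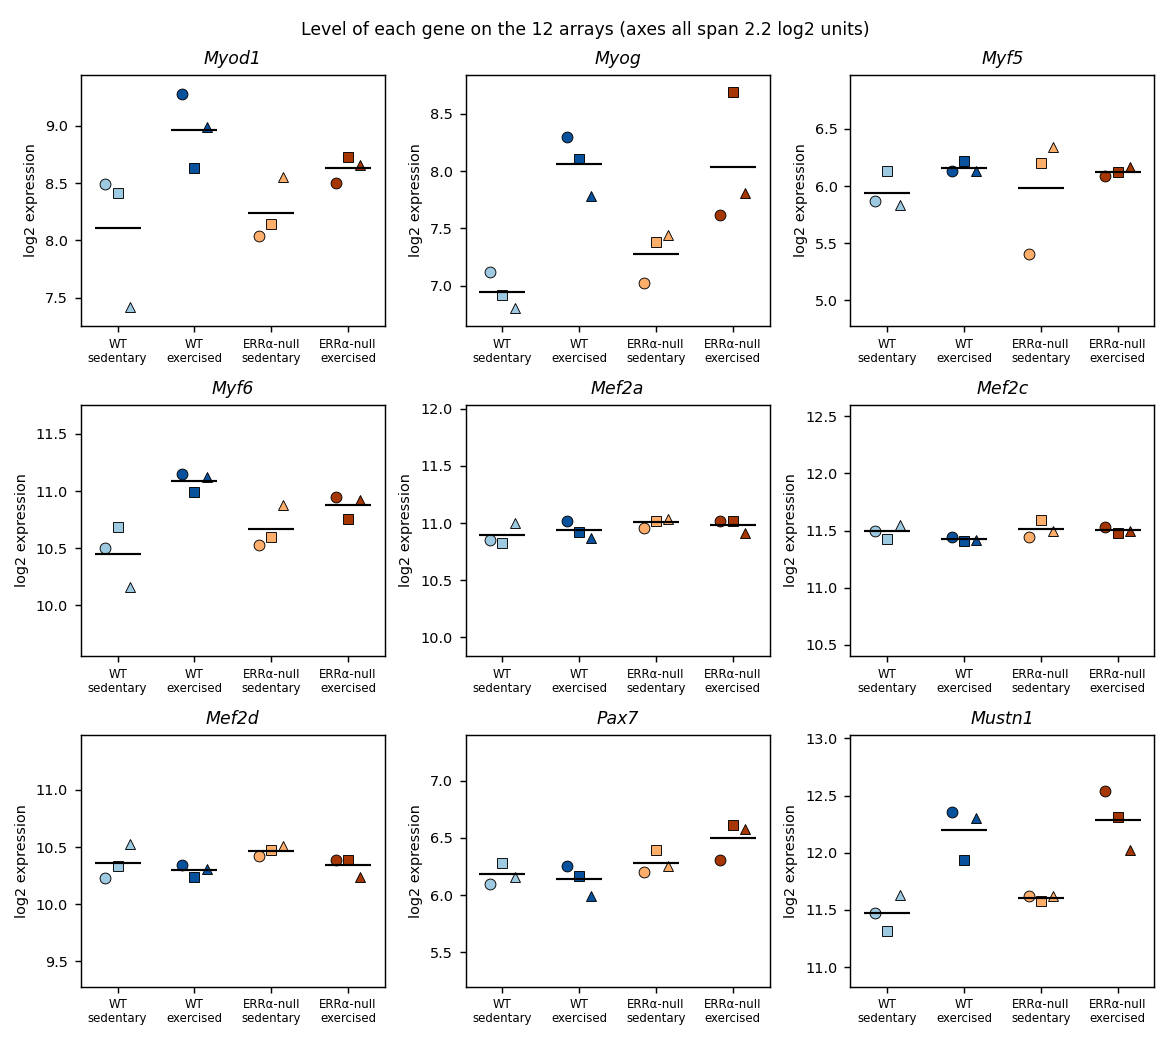
Log2 expression of the 9 genes on each of the 12 arrays, by group, with the group mean as a bar and each array as a point whose shape stands for the replicate number. The sedentary and exercised points of Myog and Mustn1 are separate in both genotypes, while the points of Mef2a, Mef2c and Mef2d stay within 0.30 log2 of each other over all arrays.

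Myog, the differentiation factor of the family, showed the largest averaged exercise difference of the 9. It was at 7.12, 6.92 and 6.80 in sedentary wild-type muscle and at 8.30, 8.11 and 7.78 after exercise. The ERRα-null arrays were at 7.02, 7.38 and 7.44 when sedentary and at 7.62, 8.69 and 7.81 after exercise. All 6 exercised arrays lay above all 6 sedentary ones, and the highest value of all was that of exercised ERRα-null replicate 2, which stood well above the other exercised null arrays. Averaged over the genotypes the difference was 0.94 ± 0.17 log2 (SE), a 1.92-fold level (95% interval 0.57 to 1.30, limma adjusted p = 0.00587). Within wild type it was 1.12 ± 0.24 (2.17-fold, adjusted p = 0.0243), and within ERRα-null muscle 0.76 ± 0.24 (1.69-fold, adjusted p = 0.194), which did not pass. The value in ERRα-null muscle was 0.44 without its exercised replicate 2 (adjusted p = 0.491) and 0.34 without the 3 arrays with high Xist (adjusted p = 0.894). The wild-type call was lost with sedentary wild type replicate 2 left out (1.11, adjusted p = 0.0793), and likewise replicate 3 (1.04, 0.0956) or exercised wild type replicate 1 (1.0, 0.0950) or 2 (1.09, 0.0701).

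The promoter of Myog is shown because the factors of the set are known to bind it. RefSeq windows of 300 bases, 250 before and 50 after the transcription start in build GRCm38.p6, were at hand for 7 of the 9 genes. The Myog window lies at chr1:134289754-134290053 on the plus strand. The capitals mark, in order, an E-box at −138, a MEF2 core at −64 and an E-box at −12, given as the first base relative to the start.
Myog: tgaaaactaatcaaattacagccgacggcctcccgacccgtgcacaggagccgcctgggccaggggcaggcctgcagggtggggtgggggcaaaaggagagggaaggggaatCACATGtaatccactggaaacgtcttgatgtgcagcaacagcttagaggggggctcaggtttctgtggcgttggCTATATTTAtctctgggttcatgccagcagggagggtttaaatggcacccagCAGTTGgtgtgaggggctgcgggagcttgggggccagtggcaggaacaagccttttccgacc
Motifs were searched on both strands as the letters CANNTG (E-box), CTANNNNTA (MEF2 core), CATTCC (M-CAT, the site of TEAD factors), TGANTCA (AP-1) and AAGGTCA (the core of the element bound by ERR receptors), and were chosen after the sequences had been seen. An E-box is in 72.3% of 32851 RefSeq promoter windows of this length and the MEF2 core in 21.0%, so that a match is a description of letters. The Myog window held no match to the other 3 motifs, which are in 14.7%, 7.81% and 4.72% of windows. The arrays measure transcripts and hold no binding data for these sites.

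Myf6, the family member of adult fibres, rose by a smaller step. Its values were 10.50, 10.69 and 10.16 in sedentary and 11.15, 10.99 and 11.12 in exercised wild-type muscle, and 10.53, 10.60 and 10.88 in sedentary and 10.95, 10.76 and 10.92 in exercised ERRα-null muscle. The states were separate in wild type and overlapped in ERRα-null muscle. The difference was 0.64 ± 0.13 in wild type (1.55-fold, 95% interval 0.36 to 0.91, adjusted p = 0.0180) and 0.20 ± 0.13 in ERRα-null muscle (adjusted p = 0.521), with an average of 0.42 ± 0.09 (1.34-fold, adjusted p = 0.0158). Exercised wild type stood highest of the 4 groups, above the exercised null group without overlap of arrays. The difference between the exercise effects, null minus wild type, was −0.43 ± 0.18 (95% interval −0.82 to −0.04) and did not pass (adjusted p = 0.950), so that unequal responses were not shown. The wild-type call for Myf6 was lost with sedentary wild type replicate 3 left out (0.49, adjusted p = 0.0532), and likewise exercised wild type replicate 1 (0.60, 0.0688) or 3 (0.62, 0.0565). That call was also lost when limma was fitted to the wild-type arrays only (0.64, adjusted p = 0.0661), and it held in 15 of 22 other settings.

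Myod1, the founding member of the family, moved the same way without passing. It was at 8.49, 8.41 and 7.42 in sedentary and 9.28, 8.63 and 8.99 in exercised wild-type muscle, and at 8.04, 8.14 and 8.55 in sedentary and 8.5, 8.73 and 8.66 in exercised ERRα-null muscle. Sedentary wild type replicate 3 stood about a log2 unit below the other sedentary wild-type arrays, and the states overlapped only in ERRα-null muscle. The difference was 0.86 ± 0.25 in wild type (1.82-fold, adjusted p = 0.0978), 0.38 ± 0.25 in ERRα-null muscle (adjusted p = 0.557) and 0.62 ± 0.18 on average (1.54-fold, 95% interval 0.23 to 1.01, adjusted p = 0.0617). The average passed with sedentary wild type replicate 1 left out (0.72, adjusted p = 0.0352), and likewise exercised wild type replicate 2 (0.71, 0.0484), and the wild-type difference ran from 0.52 to 1.05 as single arrays were left out. Sedentary wild type replicate 3 held the lowest of 12 values for Myod1, Myog and Myf6 alike. It also had the highest marker means of adipocytes (9.81) and macrophages (7.49) and the lowest of satellite cells (6.60) and muscle fibres (12.58). The part of those markers in the 3 low values was not tested.

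Myf5, the earliest family member in development, had a low signal in every group. It ran from 5.83 to 6.13 in sedentary wild type, from 5.41 to 6.34 in sedentary ERRα-null muscle, from 6.13 to 6.22 in exercised wild type and from 6.09 to 6.17 in exercised ERRα-null muscle. In wild type the highest sedentary and the lowest exercised value are both 6.13 as printed. The sedentary ERRα-null arrays span the whole range of the 12, and the exercised arrays lie close together. The averaged exercise difference was 0.18 log2 and did not pass, and its sign turned with the other-tissue covariates (−0.11).

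Mef2a, Mef2c and Mef2d, the MADS-box partners of the helix-loop-helix factors, had narrow ranges. Over all 12 arrays Mef2a ran from 10.83 to 11.04, Mef2c from 11.41 to 11.59 and Mef2d from 10.23 to 10.53, with a pooled SD within groups of 0.07, 0.05 and 0.09. None of the 3 was called in any of the 7 comparisons. The averaged exercise difference had a 95% interval of −0.09 to 0.11 for Mef2a, −0.12 to 0.05 for Mef2c and −0.22 to 0.02 for Mef2d. These intervals leave out a change of the size fitted for Myog, Myf6 or Mustn1, and small differences within them remain possible. In ERRα-null muscle Mef2d was at 10.42, 10.47 and 10.51 when sedentary and at 10.39, 10.39 and 10.24 after exercise, without overlap, and the difference of −0.13 did not pass (adjusted p = 0.513). A further Mef2c probeset ran from 7.11 to 7.48, and the mean of both probesets turned the small exercise difference in ERRα-null muscle to 0.02.

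**Figure D2:**
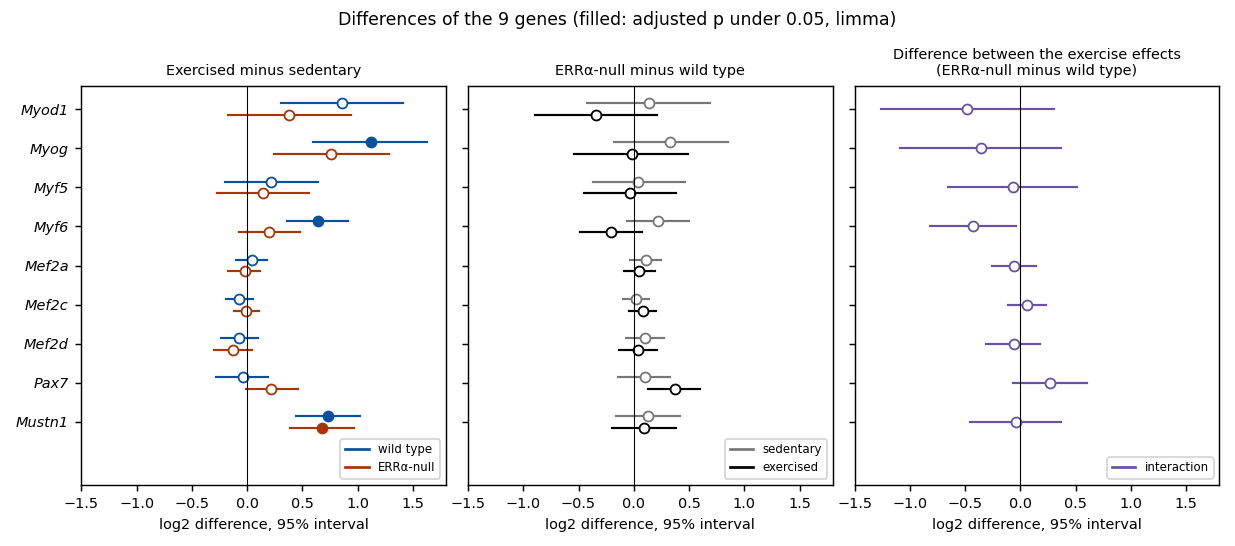
Log2 differences of the 9 genes with 95% intervals from limma, for exercise in each genotype (left), for genotype in each state (middle) and for the difference between the exercise effects (right). Filled points passed an adjusted p of 0.05, which holds for Myog, Myf6 and Mustn1 in wild type and for Mustn1 in ERRα-null muscle and for no point of the other panels.

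Mustn1 rose in both genotypes by nearly the same amount. It was at 11.47, 11.32 and 11.63 in sedentary and 12.36, 11.94 and 12.30 in exercised wild-type muscle. In ERRα-null muscle it was at 11.62, 11.58 and 11.62 when sedentary and at 12.54, 12.31 and 12.02 after exercise. Every exercised array lay above every sedentary array, in a range of 11.94 to 12.54 against 11.32 to 11.63. Over both genotypes this held for Myog and Mustn1 among the 9 and, for higher exercised levels, for 1.99% of all genes. The difference was 0.73 ± 0.13 in wild type (1.66-fold, 95% interval 0.44 to 1.02, adjusted p = 0.0108), 0.68 ± 0.13 in ERRα-null muscle (1.61-fold, 0.39 to 0.97, adjusted p = 0.0451) and 0.71 ± 0.09 on average (1.63-fold, adjusted p = 0.00102). The exercise effects differed by −0.04 ± 0.19, with a 95% interval of −0.46 to 0.37, so that a difference in response within these bounds cannot be told from none. The call in ERRα-null muscle stood close to the threshold and held in 5 of 22 other settings, with adjusted p up to 0.213. Among single arrays left out it was lost for 9 of the 12, with values of 0.56 to 0.69. Those were sedentary wild type replicates 1 and 2 (0.68 each), sedentary ERRα-null replicates 1, 2 and 3 (0.69, 0.67 and 0.69), exercised wild type replicates 1 and 3 (0.68 each) and exercised ERRα-null replicates 1 and 2 (0.56 and 0.67). The wild-type call was lost with sedentary wild type replicate 2 left out (0.65, adjusted p = 0.0522), and likewise exercised wild type replicate 1 (0.65, 0.0526).

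The genes whose pattern over the 12 arrays was most like that of Mustn1 were Ccn1, Ankrd1 and Enah. Ccn1 encodes a secreted matricellular protein, Ankrd1 a titin-associated repeat protein and Enah an actin regulator. Pearson's r with Mustn1 was 0.977 for Ccn1, 0.968 for Ankrd1 and 0.965 for Enah over 12 arrays, which share the contrast of sedentary with exercised groups. After each array was expressed as the deviation from its group mean, r was 0.939, 0.843 and 0.917, where the genes share each array's RNA and hybridisation. The 3 were picked for the highest r over the same arrays, which favours high values of this second measure as well. The exercised wild-type array numbered 2 was the lowest exercised array for all 4 genes, with Mustn1 at 11.94, Ccn1 at 9.46, Ankrd1 at 8.78 and Enah at 8.19. Averaged over genotypes, exercise raised Ankrd1 by 3.31 ± 0.32 (9.95-fold, adjusted p = 7.76e-05), Ccn1 by 1.29 ± 0.19 (2.45-fold, adjusted p = 0.00175) and Enah by 0.87 ± 0.17 (1.83-fold, adjusted p = 0.0115). With the other-tissue covariates they lay at 3.12, 1.56 and 0.97 and did not pass (adjusted p = 0.0578, 0.0873 and 0.227), and without the arrays with high Xist Enah did not (1.01, adjusted p = 0.0524).

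The Mustn1 promoter window is shown beside these genes because their arrays varied together. It lies at chr14:30879007-30879306 on the plus strand of GRCm38.p6 in RefSeq, and the capitals mark an M-CAT at +25, its only match among the 5 motifs.
Mustn1: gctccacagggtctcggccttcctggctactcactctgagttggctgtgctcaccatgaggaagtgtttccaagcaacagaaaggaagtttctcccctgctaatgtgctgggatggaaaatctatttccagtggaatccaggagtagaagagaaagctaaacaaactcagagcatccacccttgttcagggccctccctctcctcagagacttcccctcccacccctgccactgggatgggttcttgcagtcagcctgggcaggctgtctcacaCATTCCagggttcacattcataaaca
An M-CAT was also found at −103 in the window of Ccn1 and at −210 and −123 in that of Ankrd1. None was found in that of Enah. The motif was not confined to these genes, as Mef2c, which was not called, had an M-CAT at −75 in window 1 of its 3. Among the other matches were an E-box at −111 and a MEF2 core at −32 in Ankrd1, and an E-box at +32 in Enah. Window 3 of Mef2c held a MEF2 core at −191, an AP-1 match at −137 and an ERR core at −72. The letters CATTCC are in 14.7% of all windows.

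**Figure D3:**
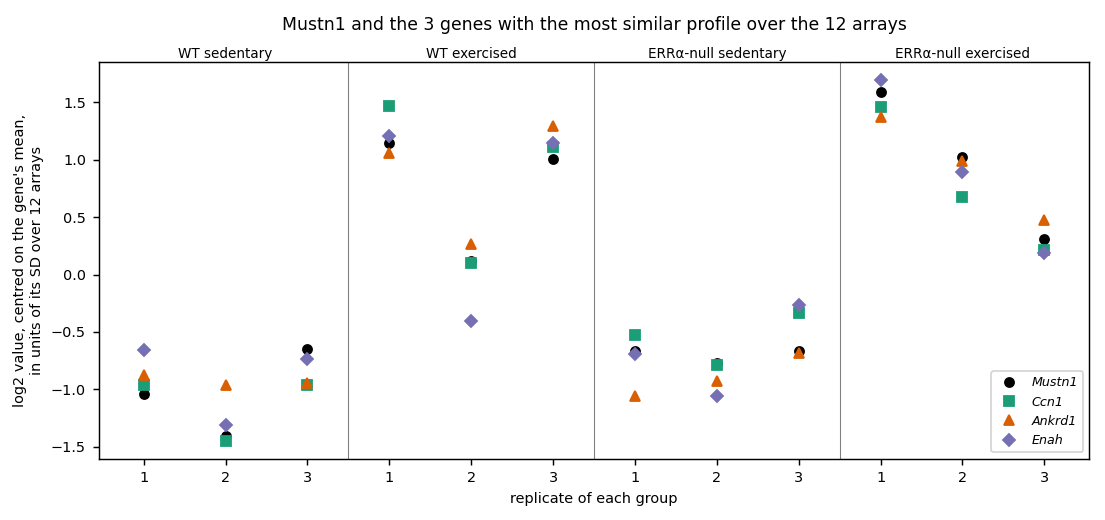
Log2 expression of Mustn1, Ccn1, Ankrd1 and Enah on the 12 arrays, each centred on its mean and in units of its SD over the 12 arrays. The exercised wild-type array numbered 2 is the lowest of the 6 exercised arrays for all 4 genes.

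Myog and Myf6 had other nearest patterns. For Myog they were Txnl4a (r = 0.940), Pou5f1 (0.939) and Ppp1r27 (0.938), and for Myf6 they were Hr (0.943), 6030466F02Rik (0.937) and Nob1 (0.917), each over 12 arrays. These genes too were picked for the highest r among all genes tested. Pou5f1 and 6030466F02Rik had low signals, with means of 5.83 and 5.55, where genes with a mean under 5.32 were not tested. Ppp1r27, a regulatory subunit of protein phosphatase 1, rose by 0.96 ± 0.14 on average (1.95-fold, adjusted p = 0.00180), and its exercised arrays, from 9.40 to 9.90, lay above its sedentary arrays, from 8.25 to 9.15. Hr, a nuclear corepressor, rose by 0.25 ± 0.06 on average (adjusted p = 0.0366) and by 0.42 ± 0.09 in wild type (adjusted p = 0.0246), with a difference of 0.08 in ERRα-null muscle that did not pass. Txnl4a and Pou5f1 had averaged differences of 0.14 and 0.17 that did not pass.

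No member was called for genotype at rest, after exercise or on average, and several intervals allow sizeable differences. At rest all 9 lay higher in muscle without the receptor, by 0.02 (Mef2c) to 0.33 (Myog) with a median of 0.11. Of all genes 49.6% lay higher and 0.0827% were called, with a median of −0.0012. The 9 genes were measured on the same arrays, so that their signs are not independent. Adjusted p ran from 0.719 to 0.983 in that comparison, and the signs of Myod1, Myf5 and Mef2c turned when single arrays were left out. After exercise the median was 0.04, and 0.376% of all genes were called. On average it was 0.07, and 1.43% of all genes were called. The comparisons of genotype at rest and of exercise in either genotype share sedentary arrays, so that their values are not independent.

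Of the 9 genes, Pax7 had the largest genotype difference after exercise. It was at 6.25, 6.17 and 5.99 in exercised wild-type and at 6.31, 6.61 and 6.58 in exercised ERRα-null muscle. The sedentary values were 6.10, 6.28 and 6.16 in wild type and 6.20, 6.39 and 6.25 in ERRα-null muscle. The exercised genotypes did not overlap, which held for Pax7, Myf6 and Mef2c among the 9 and for 16% of all genes. The difference was 0.37 ± 0.11 (1.29-fold, 95% interval 0.13 to 0.60) and did not pass (adjusted p = 0.202). Of the 3 arrays with high Xist, exercised ERRα-null replicates 2 and 3 had the 2 highest Pax7 values of all 12 and the third exercised wild-type array had the lowest. Without these 3, which leaves 1 exercised ERRα-null array whose spread is taken to equal that of the other groups, the difference was 0.10 (adjusted p = 0.938). Averaged over the states it was 0.23 ± 0.08 (adjusted p = 0.194). Of 12 tested satellite cell markers, Pax7 among them, 7 lay higher and 5 lower in ERRα-null muscle averaged over the states, with a median of 0.02. Only Peg3, an imprinted zinc finger gene, was called (0.50 ± 0.07, adjusted p = 0.00482), where 1.43% of all genes were.

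Neither Myf6 nor Myod1 passed for genotype after exercise, where both lay lower in ERRα-null muscle. The difference was −0.21 ± 0.13 for Myf6 (adjusted p = 0.653) and −0.34 ± 0.25 for Myod1 (adjusted p = 0.746). No member passed the test of the difference between the exercise effects, where 0.00751% of all genes did and the median of the 9 was −0.06 against −0.0024 over all genes. Myog lay at −0.36 ± 0.33 there (95% interval −1.09 to 0.37). It ran from −0.68, without exercised ERRα-null replicate 2, to −0.15, without replicate 1 of that group, as single arrays were left out, and was at −0.24 without exercised wild type replicate 1 or exercised ERRα-null replicate 3 and at −0.92 without the arrays with high Xist (adjusted p = 0.752). Myod1 lay at −0.48 ± 0.36 (−1.26 to 0.30). These intervals span responses that are equal and responses much smaller in ERRα-null muscle.

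The genes that act with the 9 are given from lists chosen by function, as counts beside the averaged exercise background of 3.14% higher and 3.43% lower. None of the 7 E proteins and Id inhibitors, which dimerise with the helix-loop-helix factors, passed, with a median of −0.07. Id2, an inhibitor that sequesters E proteins, came nearest at −0.65 ± 0.18 (adjusted p = 0.0546). None of the 14 tested repressors of myogenic factors passed either, with a median of 0.02, and Msc and Bhlhe40 had values of 0.29 and −0.40 (adjusted p = 0.0590 and 0.0808).

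Of the 16 homeobox, Eya and Tead factors and their cofactors, which act upstream of the myogenic genes, 3 rose, with a list median of 0. Eya4, a coactivator of sine oculis homeobox proteins, was at 9.08, 8.80 and 8.72 in sedentary and 9.60, 9.83 and 9.69 in exercised wild-type muscle, and at 8.76, 8.93 and 9.01 in sedentary and 9.44, 9.29 and 9.30 in exercised ERRα-null muscle. The states were separate in both genotypes. It rose by 0.65 ± 0.07 on average (1.56-fold, adjusted p = 0.000321). Eya1 rose by 0.36 ± 0.06 (adjusted p = 0.00317). Vgll2, a muscle cofactor of TEAD proteins, rose by 0.68 ± 0.13 (adjusted p = 0.00752), with 1.04 in wild type and 0.32, not passing, in ERRα-null muscle. Its exercise effects differed by −0.71 ± 0.25, which did not pass (adjusted p = 0.932).

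Among the 17 regulators of MEF2 activity, 2 rose and 1 fell, with a median of 0.03. Sik1, the kinase that phosphorylates class IIa histone deacetylases and so frees MEF2, was at 7.79, 7.49 and 7.62 in sedentary and 9.63, 10.31 and 10.05 in exercised wild-type muscle. In ERRα-null muscle it was at 8.37, 9.31 and 8.70 when sedentary and at 8.79, 9.71 and 9.15 after exercise. The sedentary null arrays thus stood above the sedentary wild-type arrays, though Sik1 was not called for genotype at rest. The states overlapped in ERRα-null muscle. It rose by 2.36 ± 0.26 in wild type (5.15-fold, adjusted p = 0.000311), and its value of 0.42 ± 0.26 in ERRα-null muscle did not pass. The difference between the effects (−1.94 ± 0.37, adjusted p = 0.329) did not pass either. Hdac4, a class IIa deacetylase, rose by 0.42 ± 0.11 on average (adjusted p = 0.0339), and Hdac9, another, fell by 0.43 (± 0.11, adjusted p = 0.0425). For genotype averaged over the states, the calcineurin subunit Ppp3ca was called and lay higher without the receptor (0.25 ± 0.05, adjusted p = 0.0285).

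Of 26 known targets of MEF2, 5 rose with exercise and none fell, with a list median of 0.02. These were Ppargc1a, the coactivator PGC-1α (2.05 ± 0.09, adjusted p = 1.28e-07), the actin-binding repeat protein Xirp1 (1.91 ± 0.13), Klhl40 of the thin filament (1.72 ± 0.14), the AP-1 subunit Jun (0.80 ± 0.13) and the M-band protein Myom2 (0.17 ± 0.04). Ppargc1a, Xirp1 and Klhl40 also rose in ERRα-null muscle alone, by 1.59, 1.65 and 1.63.

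Of 16 tested targets of myogenin and MyoD, 5 rose on average over the genotypes and none fell, with a median of 0.13. In wild type 4 were called, namely Musk, Cdkn1a, Runx1 and Trim63, and in ERRα-null muscle Musk alone. The list medians there were 0.21 and 0.19. The averaged values of the 5 were as follows. Musk, the receptor kinase of the neuromuscular junction, lay between 9.02 and 9.44 on the sedentary and between 9.85 and 9.92 on the exercised arrays, and it rose by 0.69 ± 0.05 (1.62-fold, adjusted p = 1.42e-05). The others were the atrophy ligase Trim63 (1.15 ± 0.19, adjusted p = 0.00364), Runx1, a factor induced by denervation (0.79 ± 0.15, adjusted p = 0.00793), the cell cycle inhibitor Cdkn1a (0.78 ± 0.17, adjusted p = 0.0170) and cardiac actin Actc1 (1.5 ± 0.34, adjusted p = 0.0207). The acetylcholine receptor subunits Chrna1, Chrnb1, Chrnd, Chrng and Chrne, which are also targets, did not pass, with values of 0.02, −0.06, 0.04, 0.22 and −0.04. Chrnb1 was called for genotype, with 7.72 to 8.40 on the wild-type and 8.65 to 9.04 on the ERRα-null arrays. Averaged over the states, its level without the receptor was higher by 0.72 ± 0.11 (adjusted p = 0.00765).

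**Figure D4:**
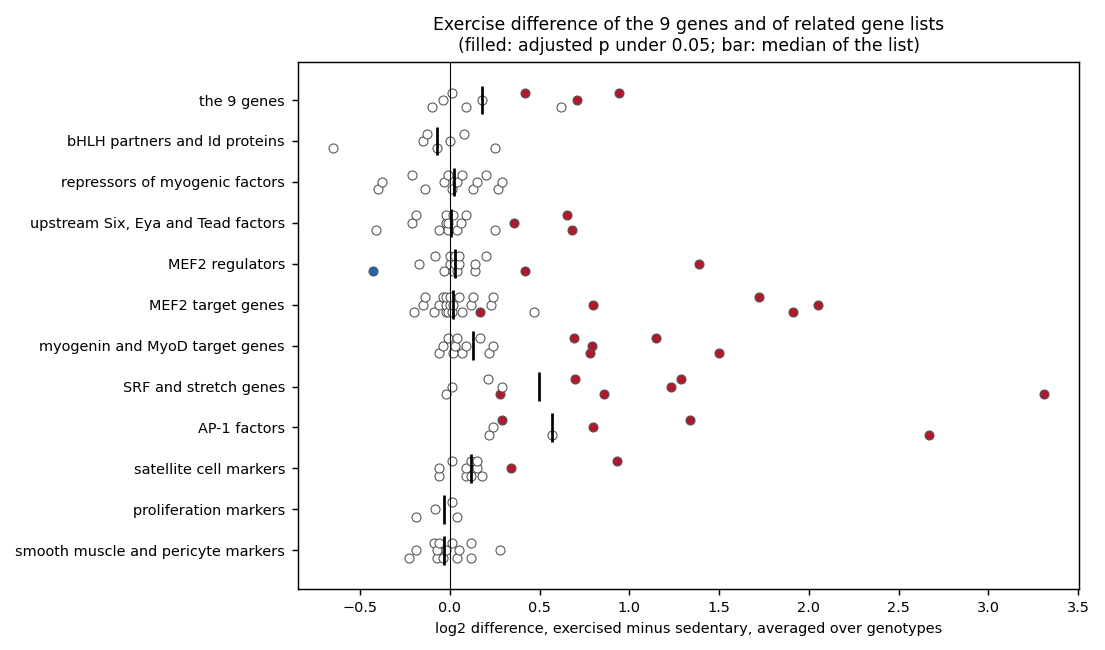
Averaged exercise differences (log2) of the 9 genes and of the tested genes of the lists drawn, a point per gene, filled where the adjusted p was under 0.05, with the list median as a bar. The endothelial, fibro-adipogenic, Schwann cell, macrophage, B and T cell, liver, adipocyte, erythroid and muscle fibre marker lists are not drawn. Called genes lie to the right for the SRF and stretch genes and the AP-1 factors, whose medians are 0.49 and 0.57, and the lists of partners and repressors hold no called gene.

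The SRF and stretch genes and the AP-1 factors had the highest list medians for averaged exercise. Of 10 SRF and stretch genes 6 rose, with a median of 0.49, namely Ankrd1, Ankrd2, Csrp3, Ccn1, Egr1 and Vcl. Of 7 tested AP-1 factors 4 rose, with a median of 0.57, namely Fos, Jun, Jund and Atf3. In wild type 4 AP-1 factors were called (Fos, Fosb, Jun and Atf3, median 0.95), and in ERRα-null muscle Atf3 alone (median 0.26). All 7 lay lower in the difference between the exercise effects (median −0.69), where none was called. The SRF and stretch genes had medians of 0.66 in wild type and 0.48 in ERRα-null muscle. For averaged exercise, Sdc4 (0.93 ± 0.12, adjusted p = 0.000914), a syndecan, and Peg3 (0.34 ± 0.07, adjusted p = 0.0106) rose among 12 tested satellite cell markers, with a list median of 0.12. Pax7 (0.09), Cdh15 (0.12) and Met (0.12) did not pass. The 4 tested proliferation markers and the 14 smooth muscle and pericyte markers held no called gene, with medians of −0.04 and −0.03. Without the 3 arrays with high Xist the counts that rose were 2 of 16 upstream factors, 1 of 17 MEF2 regulators, 4 of 26 MEF2 targets, 2 of 16 myogenin and MyoD targets, 3 of 10 SRF and stretch genes, 4 of 7 AP-1 factors and 1 of 12 satellite cell markers. Calls lost there were those of Vgll2 (0.50), Hdac4 (0.21), Hdac9 (−0.31), Myom2 (0.15), Trim63 (0.83), Cdkn1a (0.78), Actc1 (1.29), Ankrd2 (0.84), Csrp3 (0.93), Vcl (0.32), Jund (0.23) and Peg3 (0.33), and outside the lists of Ppp1r27 (0.87) and Hr (0.21), while Fosb was called among the AP-1 factors. With the other-tissue covariates they were 0, 0, 4, 1, 1, 2 and 0, and the averaged calls that were kept were those of Ppargc1a, Jun, Xirp1, Klhl40, Musk, Egr1 and Atf3. Among the calls lost there, Eya4 lay at 0.47 (adjusted p = 0.112), Eya1 at 0.44, Vgll2 at 0.32, Sik1 at 0.81, Hdac4 at 0.09, Hdac9 at −0.46, Trim63 at 0.87, Runx1 at 1.05, Cdkn1a at 0.40, Actc1 at 0.93, Myom2 at 0.02, Sdc4 at 1.0 and Peg3 at 0.26, and outside the lists Ppp1r27 lay at 0.89 and Hr at 0.24. For genotype, Chrnb1 (0.65) and Peg3 (0.48) were still called with the covariates and not without the arrays with high Xist (0.84 and 0.52), and Ppp3ca was called in neither fit (0.23 in each). In ERRα-null muscle alone Ppargc1a was called in both fits, Xirp1 only without those arrays, and Klhl40 in neither.

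The calls of the members changed with how the arrays that stand apart were treated. Without the 3 arrays with high Xist, Myog rose by 0.80 on average (adjusted p = 0.0179) and by 1.26 in wild type (adjusted p = 0.00475), and Mustn1 by 0.81 (adjusted p = 0.00692) and 0.68 (adjusted p = 0.0352). Myf6 did not pass there, at 0.45 on average (adjusted p = 0.173) and 0.62 in wild type (adjusted p = 0.114), nor did Mustn1 in ERRα-null muscle (0.94, adjusted p = 0.133), where 1 exercised array is left and assumed to vary like the other groups. With the 3 marker means of liver, adipocytes and B and T cells as covariates, which leaves 5 residual degrees of freedom, no member was called. Without the arrays with high Xist 1.29% of all genes were called for averaged exercise and 1.73% for exercise in wild type. With the covariates 1.04% of all genes were called for averaged exercise (139 against 874 without covariates) and 1.3% for exercise in wild type (173 against 457), so that calls were fewer over all genes too. The averaged values were then 1.05 for Myog (adjusted p = 0.154), 0.41 for Myf6 (adjusted p = 0.321) and 0.79 for Mustn1 (adjusted p = 0.0939), against 0.94, 0.42 and 0.71 without covariates.

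**Figure D5:**
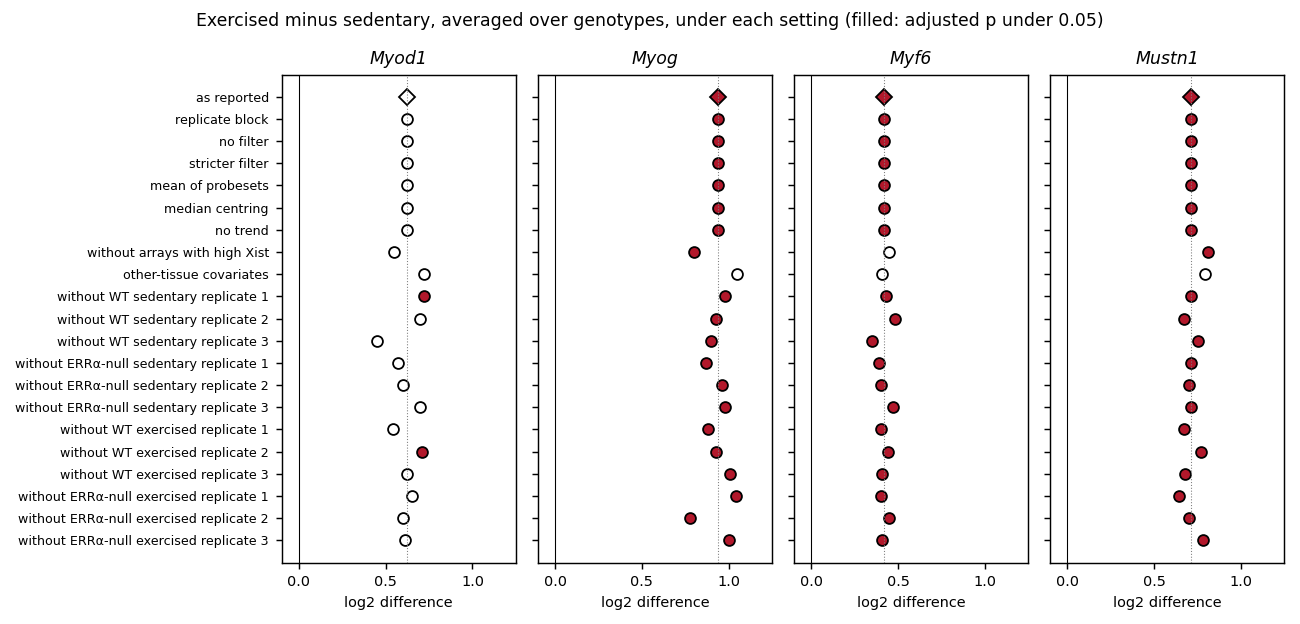
Averaged exercise differences (log2) of Myod1, Myog, Myf6 and Mustn1 under each setting of the analysis, filled where the adjusted p was under 0.05. All values lie above 0. Myog and Mustn1 are open with the covariates alone, Myf6 also without the arrays with high Xist, and Myod1 is filled for 2 of the 12 arrays left out.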

How the data were processed

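Gastrocnemius RNA was measured on Mouse Gene 2.0 ST arrays (Affymetrix). The deposited values are log2 expression per probeset and array. The submitters' processing notes name RMA, Transcriptome Analysis Console and Affymetrix Expression Console, with no version, and the genome build is not given in the sources used. RMA sets arrays to a common distribution, so differences are relative to the bulk of transcripts.

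Of 41345 probesets, 23521 had 1 symbol, which gave 22180 genes. The 40% with the lowest mean (under 5.32) were not tested, which left 13308, all 9 members among them. A model with 4 group means was fitted to 12 arrays (8 residual degrees of freedom) with limma 3.58.1 in R 4.3.3, with eBayes and an intensity trend, for 7 comparisons, two-sided, with Benjamini-Hochberg adjustment over all genes. The number of arrays limits precision. Values after ± are standard errors. The scripts were tested on simulated data.

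Members and lists (20 lists, 223 entries, 206 on the array) were chosen with earlier results of these data known. Other genes named are up to 4 of each list with the smallest p for averaged exercise, genes called in small counts, the 3 with the highest Pearson r with each called member, and array checks. The acetylcholine receptor subunits, Cdh15 and Met, the promoter motifs, the list counts and other genes under other settings, and the replicate block on only the arrays compared were chosen after their values were seen. Deviations of same-numbered replicates correlated from −0.28 to 0.35. They were over 0.1 for all 3 pairs of the exercised groups and for 9 of 18 pairs in all. These correlations are weak, and a pairing by number was not established.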

Additional observations from a re-analysis of the deposited data

How the results depend on the processing

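Each result was recomputed under up to 22 other settings, which the plot of settings shows for averaged exercise. Of 1325 values for the 63 member results, 1226 kept direction and side of the threshold, 36 lost the call, 2 gained one and 61 changed sign. No sign change touched the 7 called results, and the largest reported size among results that changed sign anywhere was 0.22.

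The count of members called for exercise in wild type, reported as 3, was 0 with the other-tissue covariates. It was 2 with only the arrays compared, with or without the replicate block. Myf6 lost its call there, as it also did without the arrays with high Xist. With single arrays left out the count was 0 to 3: 0 without exercised wild type replicate 1, and 1 without replicate 2 or 3 of the sedentary wild-type group. For averaged exercise, reported as 3, the count was 0 with the covariates and 3 to 4 with single arrays left out. For exercise in ERRα-null muscle, reported as 1, it was 0 with the replicate block over all arrays or over only the arrays compared, with no filter, with median centring, with no trend, without the arrays with high Xist, with the covariates and with only the arrays compared, and 0 to 1 with single arrays left out. The cause was not tested. The calls over all genes fell as well: for exercise in wild type from 457 to 173 with the covariates, 243 without exercised wild type replicate 1, and 251 and 221 without sedentary wild type replicates 2 and 3. Counts for genotype and for the difference between exercise effects were 0 under every setting run.

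The replicate block took the replicate number as a pairing. Between same-numbered arrays of exercised wild type and exercised ERRα-null muscle, the correlation of deviations was over 0.1 for all 3 pairs (0.17 to 0.31). That did not hold for all pairs of any other 2 groups. Deviations within a group of 3 depend on each other, so these values do not establish that the numbers pair the groups. Of 36 comparisons of an array with another group, 18 had the highest correlation with the own number, and 1 of 12 arrays had it in every other group. With the block over all arrays the counts were 3 for wild type, 0 for ERRα-null muscle (Mustn1, adjusted p = 0.0505) and 3 on average, and 0 for the other comparisons. With the block over only the arrays compared, added after the data were seen, no member was called for genotype after exercise (Pax7 0.37, adjusted p = 0.239), where 73 genes were, and the counts were 2 for exercise in wild type (Myf6 lost, adjusted p = 0.109) and 0 for ERRα-null muscle (Mustn1, adjusted p = 0.126).

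Signs of uncalled members changed as follows. With the covariates, Myf5 lay at −0.12 for genotype at rest, −0.09 for exercise in wild type, −0.13 for exercise in ERRα-null muscle, −0.14 for averaged genotype and −0.11 for averaged exercise, Pax7 at 0.08 for exercise in wild type, Mef2a at 0.05 for exercise in ERRα-null muscle and Myf6 at −0.03 for averaged genotype. Without the arrays with high Xist, Pax7 lay at 0.03 for exercise in wild type, Mef2a at 0.01 and Mef2c at 0.02 for exercise in ERRα-null muscle, Mustn1 at 0.26 for the difference between exercise effects, and Myog at −0.13 and Myf5 at −0.02 for averaged genotype. With the mean of probesets Mef2c lay at 0.02 for exercise in ERRα-null muscle.

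With single arrays left out, values spanned 0 for 18 uncalled results. For genotype at rest they ran from −0.21 to 0.33 (Myod1), −0.14 to 0.33 (Myf5) and −0.02 to 0.06 (Mef2c), and after exercise from −0.35 to 0.19 (Myog) and −0.04 to 0.23 (Mustn1). For exercise in wild type they ran from −0.003 to 0.09 (Mef2a), −0.13 to 0.02 (Mef2d) and −0.10 to 0.03 (Pax7), and in ERRα-null muscle from −0.14 to 0.33 (Myf5), −0.05 to 0.02 (Mef2a) and −0.04 to 0.04 (Mef2c). For the difference between exercise effects they ran from −0.36 to 0.11 (Myf5), −0.15 to 0.002 (Mef2d) and −0.17 to 0.09 (Mustn1). For averaged genotype they ran from −0.01 to 0.26 (Myog), −0.08 to 0.15 (Myf5) and −0.07 to 0.07 (Myf6), and for averaged exercise from −0.01 to 0.04 (Mef2a).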
